A study of Mus musculus with 6 samples.

Results

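The respiratory chain is described here through 107 genes among the 53465 rows of the deposited expression table, taken by name. They are the genes for subunits of complex I (Nduf), complex II (Sdha to Sdhd), complex III (Uqcr, Cyc1), cytochrome c (Cycs), complex IV (Cox4 to Cox8) and complex V, the ATP synthase (Atp5), and the protein genes of the mitochondrial genome. The nuclear genome holds 94 of them and the mitochondrial genome 13. The name rule also takes in 8 complex I assembly factors (Ndufaf), kept as a class of their own, and Atp5s, a factor linked to the ATP synthase that is not one of its classical subunits.

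The cells, Nras(G12D)/MLL-AF9, are a leukaemia line of the mouse with an activated Nras and a fusion of the genes Kmt2a and Mllt3, and they grew in medium with the cytokines SCF, IL-3 and IL-6. One group of 3 libraries came from cells given 100 µM OMP for 6 days. OMP is 4'-O-methylpyridoxine, also called ginkgotoxin, which resembles vitamin B6 and is known to block pyridoxal kinase. The other group of 3 libraries, Vehicle, came from cells given an equal volume of PBS. Both groups share the Nras mutation and the fusion, and the labels name 1 line, with nothing on whether the replicates were separate cultures, so the p-values speak to the spread among the 6 libraries, and that spread may be technical.

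The chain passes electrons from NADH and succinate through coenzyme Q and cytochrome c to oxygen, pumps protons across the inner mitochondrial membrane at complexes I, III and IV, and lets the ATP synthase use the return flow. Complexes I, III, IV and V each combine subunits made in the cytosol with subunits made inside the mitochondrion, while complex II and cytochrome c come from nuclear genes alone. The chain needs iron-sulfur clusters and haem, and the first step of haem synthesis and the cysteine desulfurase of cluster assembly (Nfs1) use pyridoxal phosphate, the active form of vitamin B6. The comparison asks which of these transcripts differed between OMP-treated and Vehicle cells.

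Expression is given as RPKM, reads scaled to gene length and library total. The libraries held 3494986 to 3720117 reads with OMP and 3737843 to 4247619 reads with Vehicle, so every OMP library was the smaller, and the part of this in the results was not tested. Markers of the line were present in both groups, with Hoxa9 at 60.2 to 64.9 RPKM with OMP and 57.0 to 64.8 RPKM with Vehicle, and Ptprc, the pan-leukocyte gene, at 136.5 to 144.6 RPKM with OMP and 103.8 to 109.4 RPKM with Vehicle. Of 9 erythroid, 5 megakaryocyte, 5 B cell, 6 T and NK cell and 4 stromal markers, 0 passed the filter on low values, and the summed level of the erythroid, B cell, T and NK cell and stromal lists stayed under 1 RPKM in each library. The megakaryocyte markers summed to 2.39 to 3.52 RPKM with OMP and 1.03 to 1.36 RPKM with Vehicle, higher with OMP without overlap, and Ppbp among them had 0.520 to 1.24 RPKM with OMP and was listed at 0 with Vehicle. Hbb-bs, Pf4, Cd3e and Dcn were listed at 0 in every library. The 5 mast cell, basophil and eosinophil markers summed to 7.72 to 11.04 RPKM with OMP and 8.76 to 10.6 RPKM with Vehicle, with Epx listed at 0. Mcpt8 carried most of this sum, while Ms4a2, a chain of the IgE receptor, was lower with OMP, at 0.479, 0.942 and 0.562 RPKM with OMP and 1.68, 2.45 and 1.87 RPKM with Vehicle (log2 fold change -1.12, limma adjusted p = 0.0104). The part of either marker list in the results was not tested. Of 6 tested markers of the myeloid line 3 were higher and 1, Mpo, was lower with OMP (log2 fold change -2.05). Malat1 and Neat1, RNAs that stay in the nucleus, were higher with OMP, by 0.65 ± 0.20 and 0.64 ± 0.13 (SE) on the log2 scale, with adjusted p = 0.0272 and 0.00544 in limma, and their part in the results was not tested. The call of Malat1 was lost without OMP replicate 1, OMP replicate 3, Vehicle replicate 1 or Vehicle replicate 2 (limma adjusted p = 0.0636 to 0.0866).

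Respiratory chain mRNAs moved in both directions with OMP, each by a modest amount, from Cox7a2l at -0.63 to Cox6a2 at 0.94 on the log2 scale among those that passed the test. Of the 107 members, 98 were above 0 in some library and 95 passed the filter (3 or more of the 6 libraries at an RPKM of 1 or above). Of these 95, 43 passed an adjusted p of 0.05 in limma (45.3%, against 43.0% of the 11020 genes tested). With OMP 21 members were higher (22.1%, against 15.4% of all genes) and 22 were lower (23.2%, against 27.5%). By genome of origin, 20 of 88 tested nuclear members were higher and 22 lower (median log2 fold change -0.0021), and 1 of 7 tested mitochondrial members was higher and 0 lower in limma. At an unadjusted p of 0.05, mt-Nd5 and mt-Nd6 were lower (2), and voom on the recovered reads called 3 lower. Nuclear members took 1.002% to 1.054% of the reads with OMP and 1.067% to 1.072% with Vehicle, without overlap. Groups did not overlap in 47 members (49.5%, against 54.5% of all genes). The median log2 fold change was -0.0032 over the members and -0.089 over all genes. Changes were modest, since 0 of the 95 members passed with a change of at least 2-fold (424 of the 11020 genes tested did). The median size among called members was 0.28 on the log2 scale, against 0.43 among all called genes. These comparisons were not made at matched expression level, and its part in them was not tested.

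The split between directions moved with the scaling of the libraries. It was 21 higher and 22 lower members with the RPKM as deposited, 16 and 37 with TPM rescaling, 30 and 12 with median-of-ratios scaling, 24 and 25 with quantile normalization, and 27 and 16 after removing the trend with length and GC content, an alternative chosen after seeing the data. Over all genes the higher and lower calls were 1702 and 3033 as deposited, 1221 and 3982 with TPM rescaling, 2370 and 2237 with median-of-ratios scaling, 2244 and 2321 with quantile normalization and 2481 and 2190 after removing the trend. In 27 members, 15 higher and 12 lower, the call stood under all 4 of these scalings and without each library in turn. Bulk RNA cannot tell fewer cells with a transcript from less of it per cell.

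**Figure D1:**
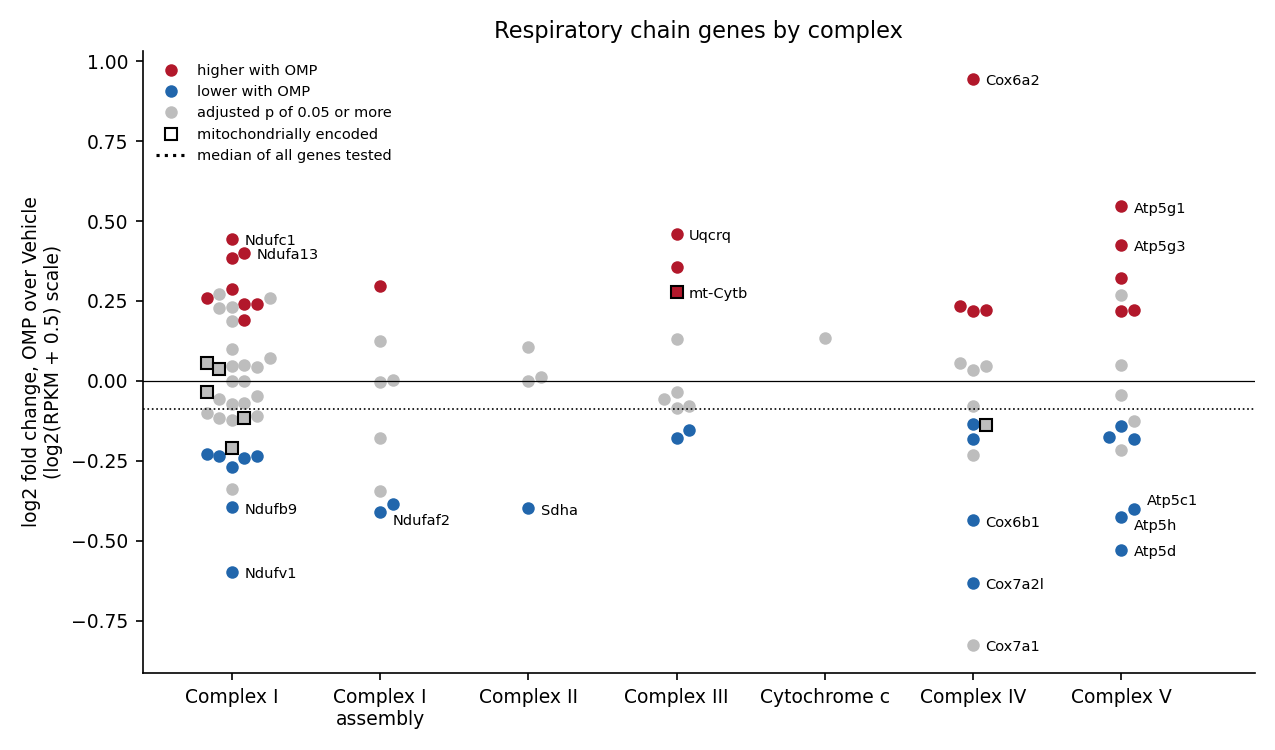
Log2 fold change, OMP over Vehicle, on the log2(RPKM + 0.5) scale, of the 95 members tested, by complex. Red and blue points passed an adjusted p of 0.05, squares are mitochondrially encoded, and the dotted line is the median of all genes tested (-0.089). Each complex with more than 4 tested members holds points of both colours, from Cox7a2l at -0.63 to Cox6a2 at 0.94.

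Of the 13 protein genes of the mitochondrial genome, 7 were above 0, and of these mt-Cytb was higher with OMP and the other 6 did not pass the test. mt-Cytb (ENSMUSG00000064370, GRCm38 chromosome M, 14145 to 15288) encodes cytochrome b, the haem-bearing core of complex III. It stood at 1980, 2309 and 2038 RPKM in OMP libraries and 1659, 1729 and 1817 RPKM in Vehicle libraries. All OMP libraries were above all Vehicle libraries, 0.28 ± 0.059 SE on the log2 scale (limma adjusted p = 0.00562). Under quantile normalization its value turned to -0.060 (limma adjusted p = 0.441), and without the OMP replicate 2, its highest library, it was 0.21 (limma adjusted p = 0.00655).

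The 6 other mitochondrial mRNAs above 0 had log2 fold changes of -0.21 to 0.057. mt-Nd1, a membrane subunit of complex I near the coenzyme Q site, had 2302, 2560 and 2328 RPKM with OMP and 2151, 2301 and 2464 RPKM with Vehicle (log2 fold change 0.057 ± 0.057 SE, limma adjusted p = 0.453). Quantile normalization turned it to -0.44 (limma adjusted p = 0.000135). mt-Co1, the catalytic subunit of complex IV, had 1866, 2260 and 1991 RPKM with OMP and 2116, 2203 and 2394 RPKM with Vehicle. These ranges overlapped (log2 fold change -0.14 ± 0.071 SE, limma adjusted p = 0.153). Without OMP replicate 2 the value was -0.21 (limma adjusted p = 0.0190), with quantile normalization -0.53 (7.4e-05), and with the trend with length and GC content removed 0.0019 (0.983). The mt-Co1 value was -0.22 with TPM rescaling (limma adjusted p = 0.0208), -0.14 with voom (0.00106) and -0.047 with median-of-ratios scaling (0.615). mt-Nd5, a proton-pumping subunit of complex I, had 483.9, 536.2 and 487.8 RPKM with OMP and 539.8, 542.7 and 550.9 RPKM with Vehicle. The groups did not overlap, yet mt-Nd5 missed the threshold (log2 fold change -0.12 ± 0.043 SE, limma adjusted p = 0.0558). It passed without OMP replicate 2 (-0.16, limma adjusted p = 0.00526) and with TPM rescaling (-0.20, limma adjusted p = 0.00215), was -0.027 with median-of-ratios scaling (0.642) and turned to 0.047 with the trend removed (0.323). Quantile normalization (-0.16, limma adjusted p = 0.029) and voom (-0.12, 0.00315) also gave a pass for mt-Nd5. mt-Nd6, the one member read from the light strand, had 556.3, 601.6 and 557.8 RPKM with OMP and 569.1, 691.8 and 734.9 RPKM with Vehicle (log2 fold change -0.21 ± 0.085 SE, limma adjusted p = 0.0768). It passed without Vehicle replicate 1 (-0.32, limma adjusted p = 0.00234), and did not pass with any other library left out (up to 0.225). TPM rescaling gave -0.30 (limma adjusted p = 0.0174), quantile normalization -0.23 (0.0448) and voom -0.22 (0.00145). It also passed with the replicate number as a block (limma adjusted p = 0.0443) and with the trend removed (-0.16, 0.0252). With median-of-ratios scaling it was -0.12 (0.281). mt-Nd2 and mt-Nd4, both in the membrane arm of complex I, had log2 fold changes of 0.036 and -0.036. The median over the 7 was -0.036, and mitochondrial members took 1.004% to 1.167% of the reads with OMP and 1.003% to 1.127% with Vehicle.

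mt-Co2, mt-Co3, mt-Atp6, mt-Atp8, mt-Nd3 and mt-Nd4l were listed at 0 in all 6 libraries, although every respiring cell uses their products. These zeros are not read as absence. The share of each mRNA that also occurs elsewhere was measured as the percent of its 50-base windows found in another gene model of GENCODE M21 on GRCm38. It was 100% for mt-Co2, 99.9% for mt-Co3, 99.5% for mt-Atp6, 98.8% for mt-Nd4l and 98.0% for mt-Nd3. For mt-Nd4 it was 62.2%, for mt-Co1 51.1%, for mt-Nd2 8.19% and for mt-Nd5 7.61%. For mt-Nd1, mt-Nd6 and mt-Cytb no such window was found, nor for mt-Atp8, whose gene overlaps mt-Atp6. Levels of mt-Nd4 and mt-Co1 are therefore uncertain.

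Most copies lie in a nuclear copy of mitochondrial DNA on chromosome 1, in gene models between 24611535 and 24616197 on GRCm38. Aligned over 681 bases, mt-Co2 and Gm28661 had 0 mismatches, as did mt-Co3 and Gm28437 over 783 bases. mt-Nd3 and Gm28438 had 1 mismatch over 345 bases, and mt-Co1 and Gm29216 had 6 over 492 bases. The following 60-base stretches, written 5′ to 3′ in the direction of the mitochondrial mRNA from the GENCODE M21 transcripts, show how alike the mitochondrial genes and their nuclear copies are. Capitals mark bases that differ between a mitochondrial gene and its copy, and the mt-Co1 stretch (bases 1054 to 1113 of the gene) holds all 6 of its mismatches.
mt-Co2: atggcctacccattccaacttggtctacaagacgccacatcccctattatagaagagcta
Gm28661: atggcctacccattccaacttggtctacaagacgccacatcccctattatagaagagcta
mt-Nd3: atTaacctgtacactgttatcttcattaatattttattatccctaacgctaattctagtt
Gm28438: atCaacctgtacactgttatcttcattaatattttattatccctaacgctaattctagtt
mt-Co1: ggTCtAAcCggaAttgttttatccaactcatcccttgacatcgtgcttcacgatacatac
Gm29216: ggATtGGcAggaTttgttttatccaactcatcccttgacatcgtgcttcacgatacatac

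The copies themselves held few or no reads. Gm28438 had 29 reads over the 6 libraries, Gm29216 had 4, and Gm28661, Gm28437, Gm10925 (mt-Atp6), Gm10222 (mt-Nd4l) and Gm28439 (mt-Nd4) had 0. How reads that fit several places were treated is not given in the sources used here.

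**Figure D2:**
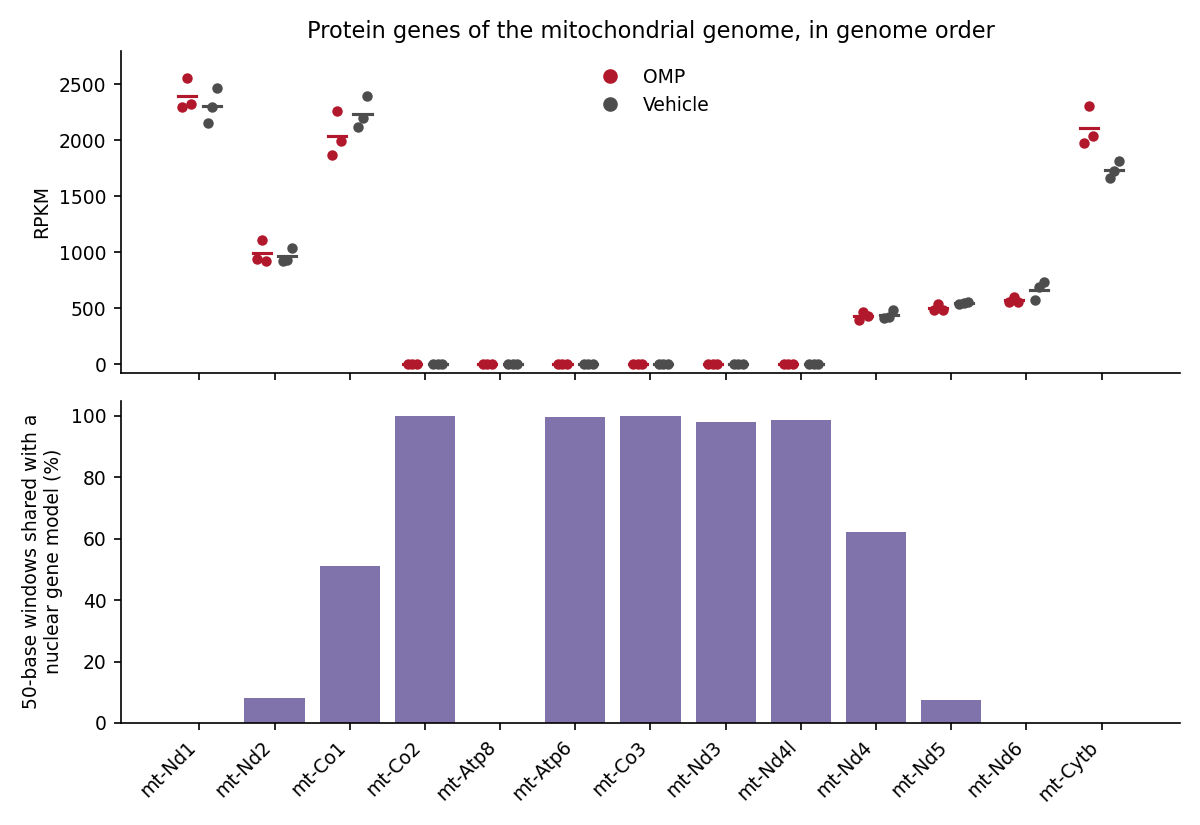
Upper panel, RPKM of the 13 mitochondrial protein genes in each OMP (red) and Vehicle (grey) library, with bars at the group means. Lower panel, percent of each gene's 50-base windows that also occur in another gene model, where the 5 highest bars (98.0% to 100%) belong to genes listed at 0.

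A single scaling factor per library cancels in a ratio of genes within it. Divided by mt-Nd1 of the same library, mt-Cytb was 0.860 to 0.902 with OMP and 0.737 to 0.771 with Vehicle. mt-Co1 was 0.811 to 0.883 of mt-Nd1 with OMP and 0.958 to 0.984 with Vehicle. mt-Nd5 was 0.210 ± 0.00042 with OMP and 0.237 ± 0.014 with Vehicle (SD, n = 3 each, exact permutation p = 0.1), and mt-Nd6 was 0.239 ± 0.0034 with OMP and 0.288 ± 0.020 with Vehicle (SD, n = 3 each, exact permutation p = 0.1). In these 4 of 6 ratios the groups did not overlap, with mt-Cytb the one that was higher with OMP. For each of the 4 the two-sided exact permutation p was 0.1, the smallest that 3 against 3 libraries allow, and 0.15 adjusted over the 6 ratios. The mt-Nd2 and mt-Nd4 ratios overlapped between groups. Quantile normalization, which does not use a single factor, turned the log2 difference relative to mt-Nd1 to 0.28 for mt-Nd5 and 0.20 for mt-Nd6, against -0.17 and -0.27 as deposited. It was 0.38 for mt-Cytb and -0.094 for mt-Co1, against 0.22 and -0.19 as deposited.

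**Figure D3:**
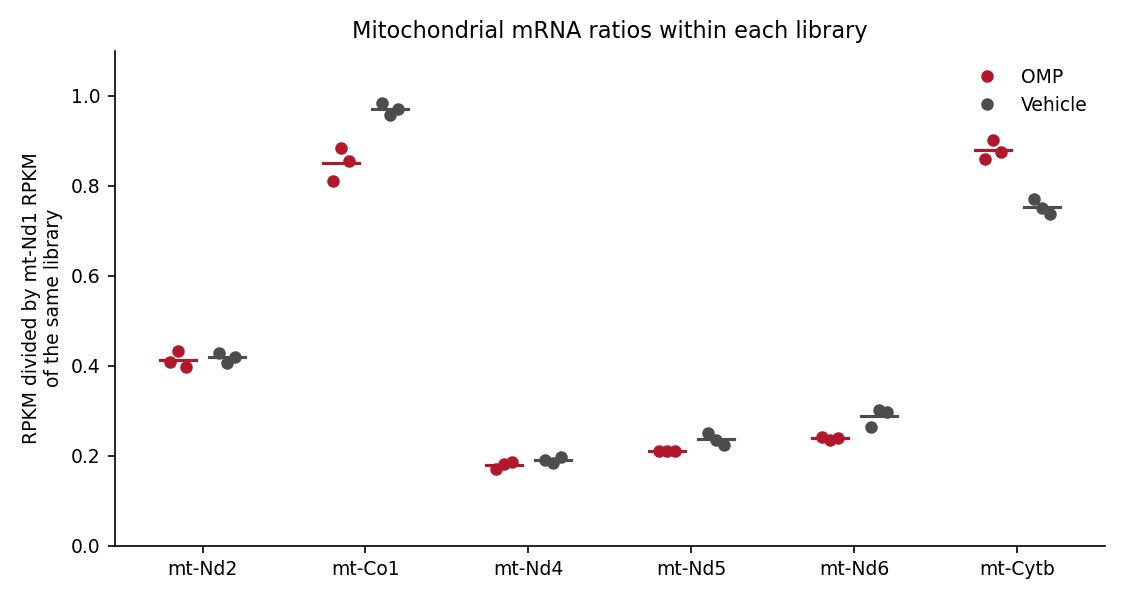
RPKM of 6 mitochondrial mRNAs divided by mt-Nd1 of the same library, for OMP (red) and Vehicle (grey), each point a library and each bar a group mean. mt-Cytb is higher with OMP (mean 0.879 against 0.753), while mt-Co1, mt-Nd5 and mt-Nd6 are lower without overlap, the last 2 turning the other way with quantile normalization.

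In complex I, the NADH dehydrogenase, nuclear core and accessory subunits were called about as often as genes at large. Of 7 nuclear core subunits 0 rose and 3 fell (42.9% called, against 43.0% of all genes), and of 29 accessory subunits 8 rose and 4 fell (41.4% called). Of the 3 core falls, those of Ndufs7 and Ndufv2 were lost with median-of-ratios scaling and with the trend with length and GC content removed. The medians were -0.12 and 0.072 on the log2 scale, and this difference between classes was not tested. Over the whole complex, 8 rose and 7 fell of 41 tested, with a median of 0.0008.

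Ndufv1 (ENSMUSG00000037916, chromosome 19, 4007384 to 4012806), which binds NADH and the flavin that takes its electrons, had the largest fall of the complex. It stood at 41.2, 40.7 and 41.1 RPKM in OMP libraries and 61.7, 62.0 and 63.2 RPKM in Vehicle libraries. The gap between groups was far wider than the spread within them (log2 fold change -0.60 ± 0.041 SE, limma adjusted p = 1.63e-05). Ndufs7, which holds the iron-sulfur cluster next to the coenzyme Q site, had 37.0 ± 0.443 RPKM with OMP and 44.9 ± 4.71 RPKM with Vehicle, and its fall was lost with median-of-ratios scaling (-0.18, limma adjusted p = 0.0765). Ndufv2, the iron-sulfur partner of Ndufv1, fell by 0.23 on the log2 scale. Its call was also lost with median-of-ratios scaling (limma adjusted p = 0.123), and without OMP replicate 3 (0.0579) or Vehicle replicate 1 (0.0705). Ndufs1 and Ndufs8, which hold iron-sulfur clusters, and Ndufs3, their neighbour in the matrix arm, had log2 fold changes of -0.10, -0.070 and 0.045 and did not pass. The ratio of Ndufv1 to Ndufs4, chosen after these values were seen, was 0.737 ± 0.017 with OMP and 1.37 ± 0.059 with Vehicle (SD of 3 libraries each).

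Among accessory subunits the largest rises were Ndufc1, Ndufa13 and Ndufa7. Ndufc1 (chromosome 3, 51404677 to 51408988), a small subunit of the membrane arm, had 30.2, 31.1 and 32.7 RPKM with OMP and 21.2, 23.3 and 24.3 RPKM with Vehicle (log2 fold change 0.44 ± 0.066 SE, limma adjusted p = 0.000926). Ndufa13, also known as GRIM-19 and needed for assembly of the complex, had 82.4 ± 4.78 RPKM with OMP and 62.3 ± 2.70 RPKM with Vehicle. In Ndufa13, 27.1% of windows lie in an overlapping locus, Tssk6, so its reads are uncertain to that extent. Ndufa7, which sits in the matrix arm, rose by 0.38 on the log2 scale. Ndufs4, a matrix arm subunit whose loss causes a Leigh-like disease in mice, had 55.3, 54.4 and 57.3 RPKM with OMP and 43.2, 45.2 and 48.2 RPKM with Vehicle, again without overlap. Ndufa9, Ndufa12, Ndufa3 and Ndufa6 rose by 0.24, 0.26, 0.24 and 0.19, and the calls of Ndufa12, Ndufa3 and Ndufa6 were lost with TPM rescaling. Ndufa12 was also lost without OMP replicate 3 or Vehicle replicate 3 (limma adjusted p of up to 0.0603). Ndufa3 was lost without OMP replicate 2, OMP replicate 3, Vehicle replicate 1 or Vehicle replicate 2 (up to 0.0793), and Ndufa6 without OMP replicate 2, OMP replicate 3, Vehicle replicate 1 or Vehicle replicate 3 (up to 0.139). In Ndufa12, 26.2% of windows are shared with another gene model.

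The 4 accessory subunits that fell, Ndufb9, Ndufb5, Ndufb11 and Ndufb10, all belong to the membrane arm. Ndufb9 had 57.7, 45.6 and 55.0 RPKM with OMP and 66.9, 65.6 and 75.6 RPKM with Vehicle. Every OMP library was lower (log2 fold change -0.40 ± 0.092 SE, limma adjusted p = 0.00855). Ndufb5 and Ndufb11 both fell by 0.24, and the call of Ndufb5 was lost with median-of-ratios scaling. In Ndufb5 and Ndufb9, 16.2% and 23.4% of windows lie in an overlapping locus. Ndufb10 fell by 0.23, but its call was lost when any library other than Vehicle replicate 1 was left out (limma adjusted p of up to 0.119) and under 3 of the 4 scalings. The other Ndufb genes tested had log2 fold changes of -0.11 to 0.23 and did not pass. Ndufa11, a membrane arm subunit, had 9.68, 14.7 and 12.5 RPKM with OMP and 15.3, 14.8 and 16.4 RPKM with Vehicle, which did not overlap but missed the threshold (limma adjusted p = 0.0737, and 0.0161 without OMP replicate 2).

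Of the 8 Ndufaf assembly factors, which help build complex I without staying in it, 1 rose and 2 fell. That was 37.5% called, against 43.0% of all genes. Ndufaf2, a chaperone of late assembly, had 13.9, 10.8 and 13.5 RPKM with OMP and 17.4, 17.3 and 16.3 RPKM with Vehicle. Ndufaf3, which acts early together with Ndufaf4, had 15.4 ± 0.976 RPKM with OMP and 20.2 ± 0.145 RPKM with Vehicle (SD, n = 3 each). Groups did not overlap in either fall (log2 fold changes -0.41 ± 0.099 and -0.39 ± 0.066 SE, limma adjusted p = 0.0102 and 0.00187). The Ndufaf2 call was lost with voom on the recovered reads (limma adjusted p = 0.0769). Its values rest on 33, 26 and 34 reads with OMP and 44, 48 and 47 reads with Vehicle. Ndufaf4 itself did not pass (0.13, limma adjusted p = 0.324). Ndufaf8, the partner of Ndufaf5, rose by 0.30, a call lost with TPM rescaling and without OMP replicate 2, OMP replicate 3, Vehicle replicate 2 or Vehicle replicate 3 (limma adjusted p = 0.0581 to 0.0658).

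In complex II, succinate dehydrogenase, only the flavoprotein gene passed the test (25% of 4 called, against 43.0% of all genes). Sdha (ENSMUSG00000021577, chromosome 13, 74322254 to 74350280), which holds the flavin and oxidises succinate, had 82.8, 83.1 and 86.6 RPKM with OMP and 111.3, 110.4 and 111.5 RPKM with Vehicle. The replicates of each group lay close together and the groups far apart (log2 fold change -0.40 ± 0.037 SE, limma adjusted p = 8.47e-05). Sdhb, the iron-sulfur subunit, had 93.5, 89.0 and 76.7 RPKM with OMP and 81.5, 93.3 and 81.6 RPKM with Vehicle, which overlapped. Sdhc and Sdhd anchor the enzyme in the membrane, and their log2 fold changes were -0.001 and 0.11 (limma adjusted p = 0.992 and 0.0925). Sdhd passed with median-of-ratios scaling (0.20, limma adjusted p = 0.00931) and, barely, without OMP replicate 3 (0.14, limma adjusted p = 0.0499). The ratio of Sdha to Sdhb was 0.886 to 1.13 with OMP and 1.18 to 1.37 with Vehicle (exact permutation p = 0.1). It restates the fall of Sdha and is not a separate result.

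In complex III, the cytochrome bc1 complex, 3 of 10 members rose and 2 fell (50% called, against 43.0% of all genes). The rises were mt-Cytb, described above, and the small subunits Uqcrq and Uqcr11. Uqcrq (ENSMUSG00000044894, chromosome 11, 53427922 to 53430831), which contacts cytochrome b, had 132.1, 145.1 and 151.6 RPKM with OMP and 103.2, 103.5 and 104.0 RPKM with Vehicle. It was higher in all OMP libraries (log2 fold change 0.46 ± 0.052 SE, limma adjusted p = 0.000231). Uqcr11 had 133.5 ± 17.0 RPKM with OMP and 103.7 ± 1.32 RPKM with Vehicle. Uqcrfs1, the Rieske iron-sulfur protein that hands electrons on to cytochrome c1, fell by 0.18 on the log2 scale, and Uqcrb, a small subunit, fell by 0.15 with overlapping groups. Their adjusted p-values of 0.0457 and 0.0484 sat at the threshold, and both calls were lost with median-of-ratios scaling and without Vehicle replicate 1, Vehicle replicate 3 or OMP replicate 3 (limma adjusted p of up to 0.142 and 0.149). Uqcrfs1 was also lost without OMP replicate 2 or Vehicle replicate 2, and Uqcrb without OMP replicate 1. In Uqcrb, 43.2% of windows are shared with another gene model. Cyc1, cytochrome c1, and the large core subunits Uqcrc1 and Uqcrc2 did not pass, at -0.077, -0.035 and -0.057. Cycs, cytochrome c, had 15.8, 18.8 and 17.9 RPKM with OMP and 15.5, 15.4 and 16.7 RPKM with Vehicle (log2 fold change 0.13 ± 0.080 SE, limma adjusted p = 0.211). It passed with median-of-ratios scaling (0.22, limma adjusted p = 0.0497), quantile normalization (0.23, limma adjusted p = 0.0422) and the trend removed (0.29, limma adjusted p = 0.0196).

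Complex IV, cytochrome c oxidase, held both the largest rise and the largest fall among the called members. Of 15 tested, 4 rose and 4 fell (53.3% called, against 43.0% of all genes). Cox6a2 (ENSMUSG00000030785, chromosome 7, 128205435 to 128206387), known as the heart and skeletal muscle form of subunit 6a, had 109.0, 113.9 and 111.5 RPKM with OMP and 68.5, 54.6 and 51.2 RPKM with Vehicle. It was 1.92-fold higher, with no overlap (log2 fold change 0.94 ± 0.095 SE, limma adjusted p = 0.000126). Its counterpart Cox6a1, the form of most tissues, had 206.4, 221.4 and 230.7 RPKM with OMP and 263.3, 235.0 and 248.2 RPKM with Vehicle. That fall of 0.18 was lost with median-of-ratios scaling and without OMP replicate 1, OMP replicate 2, Vehicle replicate 1 or Vehicle replicate 3 (limma adjusted p = 0.0523 to 0.0888). Cox6a2 made up 33.7% ± 1.01 of the summed Cox6a RPKM with OMP and 18.9% ± 1.76 with Vehicle (SD of 3 libraries each).

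Cox7a2l (ENSMUSG00000024248, chromosome 17, 83501918 to 83517330) encodes the factor that joins complexes III and IV in supercomplexes. It had 72.8, 68.0 and 58.1 RPKM with OMP and 106.1, 99.1 and 102.8 RPKM with Vehicle. All OMP libraries were lower (log2 fold change -0.63 ± 0.077 SE, limma adjusted p = 0.000342). In Cox7a2l, 17.7% of windows are shared with another gene model. Cox6b1, a subunit on the outer face of the enzyme that links its monomers, had 179.2, 189.5 and 186.6 RPKM with OMP and 261.5, 242.0 and 248.8 RPKM with Vehicle (log2 fold change -0.44 ± 0.041 SE, limma adjusted p = 8.64e-05). Cox5a, Cox6c and Cox7b, nuclear subunits around the catalytic core, rose by 0.22, 0.23 and 0.22 and had no overlap between groups. In Cox5a, 29.2% of windows lie in an overlapping locus. Cox4i1, the regulatory subunit 4, fell by 0.13 with overlapping groups. Its adjusted p of 0.0486 went past the threshold when any library other than Vehicle replicate 3 was left out (up to 0.152). Cox8a had 246.1 to 321.3 RPKM with OMP and 324.4 to 342.6 RPKM with Vehicle and just missed it (limma adjusted p = 0.0515, and 0.00588 without OMP replicate 2). Cox5b, Cox7a2, Cox7c and Ndufa4 had log2 fold changes of -0.080 to 0.056.

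Tissue-restricted forms other than Cox6a2 were low or listed at 0. Cox7a1, the muscle form of subunit 7a, had 1.18, 2.90 and 0.554 RPKM with OMP and 2.76, 2.52 and 2.91 RPKM with Vehicle, and its log2 fold change of -0.83 ± 0.38 SE did not pass (limma adjusted p = 0.114). Without OMP replicate 2, its highest OMP library, it was -1.28 (limma adjusted p = 0.00859). These Cox7a1 values rest on only 2, 5 and 1 reads with OMP and 5, 5 and 6 reads with Vehicle. Cox4i2, Cox6b2 and Ndufa4l2 stayed under the filter, with highest values of 0.384, 1.47 and 0.576 RPKM, each in an OMP library. Cox4i2 rests on 1 read with OMP and 1 with Vehicle, and Cox6b2 on 4 reads with OMP and 0 with Vehicle. Cox8b, Cox8c and Cox7b2, forms known from muscle or testis, were listed at 0 in all 6 libraries. At this depth 3 reads of a gene of 1 kb stand for 0.806 to 0.858 RPKM with OMP and 0.706 to 0.803 RPKM with Vehicle, so levels below these rest on fewer than 3 reads per kb of gene.

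**Figure D4:**
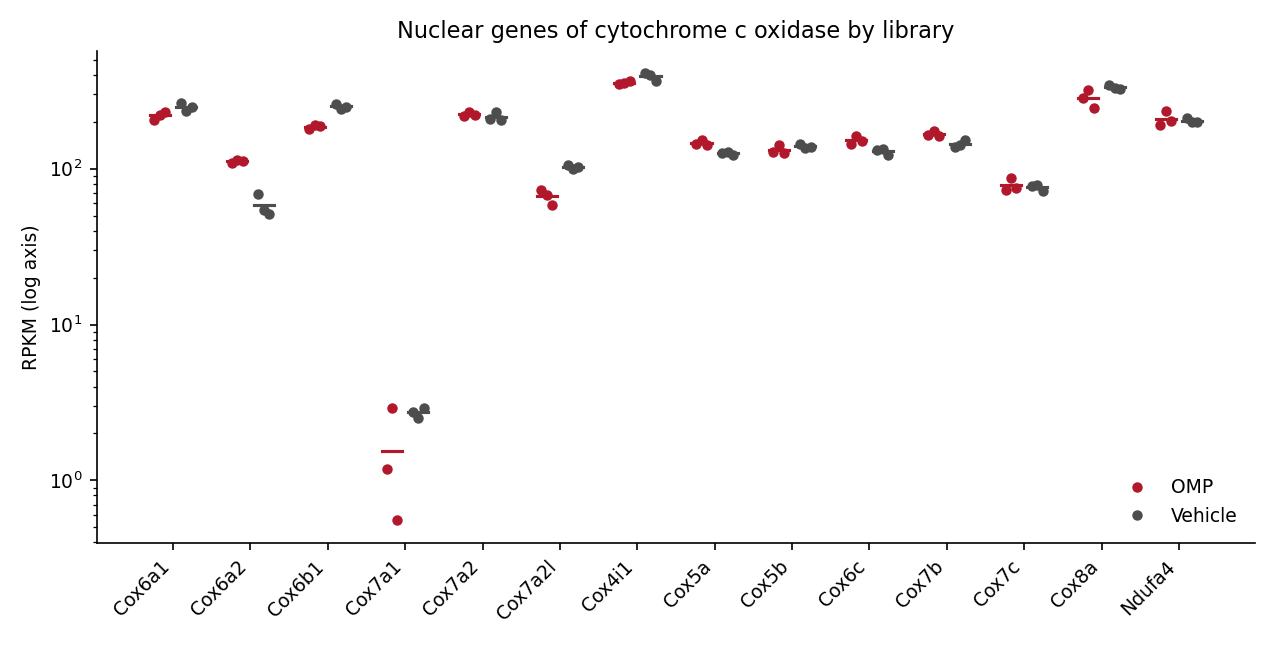
RPKM (log axis) of the 14 tested nuclear genes of complex IV in each OMP (red) and Vehicle (grey) library, with bars at the group means. Cox6a2 sits at 109.0 to 113.9 RPKM with OMP and 51.2 to 68.5 RPKM with Vehicle, while Cox6b1 and Cox7a2l are lower with OMP.

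In complex V, the ATP synthase, 5 of 16 tested members rose and 6 fell, set out here by part of the enzyme. That was 68.8% called, 31.2% higher and 37.5% lower, against 43.0%, 15.4% and 27.5% of all genes. All 5 genes of the catalytic F1 head and central stalk passed, 4 lower and 1 higher. Of the 3 c-ring genes 2 rose and 0 fell, of 4 peripheral stalk genes 0 rose and 2 fell, and of 3 small membrane subunits 2 rose and 0 fell. With so few genes in each part, no test of the parts was made.

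Atp5d (ENSMUSG00000003072, chromosome 10, 80138632 to 80145818), the delta subunit of the central stalk, had 69.0, 77.1 and 68.3 RPKM with OMP and 101.3, 103.8 and 104.2 RPKM with Vehicle. It had the largest fall of the complex (log2 fold change -0.53 ± 0.053 SE, limma adjusted p = 0.000123). Atp5c1, the gamma subunit that turns inside the head, had 120.9, 128.4 and 122.2 RPKM with OMP and 157.3, 172.9 and 161.3 RPKM with Vehicle. The alpha and beta subunits of the head, Atp5a1 and Atp5b, had 365.4 ± 4.81 and 802.2 ± 18.6 RPKM with OMP and 412.5 ± 13.3 and 909.0 ± 9.68 RPKM with Vehicle. Both falls were small but wider than the spread (log2 fold changes -0.17 and -0.18), and that of Atp5a1 was lost with median-of-ratios scaling (limma adjusted p = 0.0909). Atp5e, the epsilon subunit beside delta, went the other way, with 304.5, 324.3 and 301.4 RPKM with OMP and 261.8, 269.4 and 265.1 RPKM with Vehicle. The ratio of Atp5d to Atp5e was 0.230 ± 0.0064 with OMP and 0.389 ± 0.0040 with Vehicle (SD of 3 libraries each, exact permutation p = 0.1). This pair joins the largest fall and the 1 rise of the part, so its separation follows from the choice of genes.

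The c ring, which rotates as protons pass, is built from 1 mature protein encoded by Atp5g1, Atp5g2 and Atp5g3. Atp5g3 (chromosome 2, 73908447 to 73911326), the most abundant by RPKM, had 389.8, 424.4 and 374.0 RPKM with OMP and 295.7, 309.7 and 278.1 RPKM with Vehicle. It was higher in all OMP libraries (log2 fold change 0.43 ± 0.056 SE, limma adjusted p = 0.000492). Atp5g1 (chromosome 11, 96068852 to 96075670) had 20.5, 23.7 and 20.1 RPKM with OMP and 14.4, 13.8 and 15.3 RPKM with Vehicle, the largest rise of the complex (log2 fold change 0.55 ± 0.081 SE, limma adjusted p = 0.000916). Atp5g2 had 35.0, 39.3 and 37.5 RPKM with OMP and 44.1, 39.9 and 38.1 RPKM with Vehicle and did not pass. Summed over the 3 genes, the c-subunit RPKM was 431.6 to 487.4 with OMP and 331.6 to 363.4 with Vehicle. Its ratio to Atp5b was 0.567 ± 0.032 with OMP and 0.385 ± 0.021 with Vehicle (SD of 3 libraries each, exact permutation p = 0.1). That ratio sets the rise of Atp5g3 against the fall of Atp5b and is not a separate result. The RPKM of Atp5g1 was set with a gene length of 4715 bases, long for so small a protein, so its level against the other 2 genes is uncertain.

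In the peripheral stalk, Atp5h, subunit d, had 159.4, 163.1 and 149.0 RPKM with OMP and 203.2, 217.5 and 213.0 RPKM with Vehicle (log2 fold change -0.43 ± 0.045 SE, limma adjusted p = 0.000168), with 47.9% of its windows shared with another gene model. Atp5o, the subunit that ties the stalk to the head, fell by 0.14, a call lost with median-of-ratios scaling. In Atp5o, 39.4% of windows lie in an overlapping locus. Atp5f1 and Atp5j, the other stalk genes, had log2 fold changes of -0.045 and 0.049. Among the small membrane subunits that hold synthase dimers together, Atp5k (subunit e) had 184.3, 185.2 and 181.1 RPKM with OMP and 145.7, 153.5 and 140.9 RPKM with Vehicle (log2 fold change 0.32 ± 0.040 SE, limma adjusted p = 0.000374). Atp5j2 (subunit f) rose by 0.22, a call lost with TPM rescaling and when any library other than Vehicle replicate 2 was left out (limma adjusted p of up to 0.103). Atp5l (subunit g) had 15.2 ± 1.52 RPKM with OMP and 12.6 ± 2.04 RPKM with Vehicle and did not pass (limma adjusted p = 0.109, and 0.0266 without Vehicle replicate 2), and 68.5% of its windows are shared. Atpif1, the inhibitor of the synthase and no member by name, did not pass (0.10, limma adjusted p = 0.307).

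**Figure D5:**
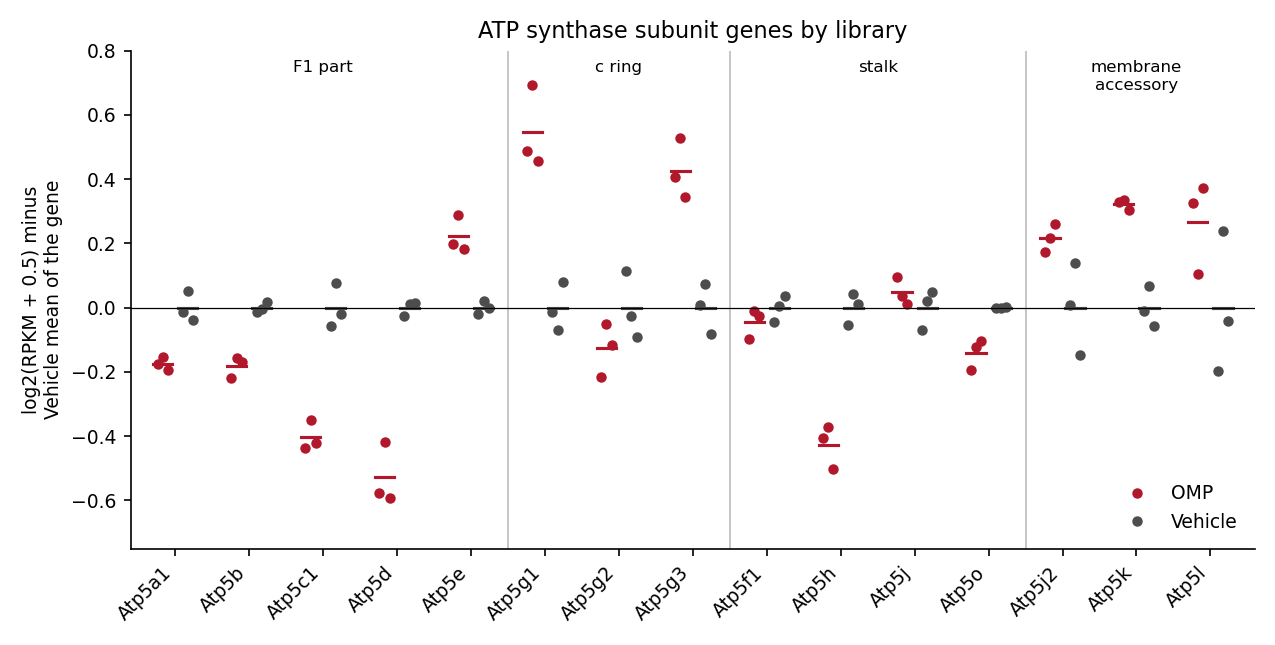
Log2(RPKM + 0.5) of 15 ATP synthase subunit genes in each OMP (red) and Vehicle (grey) library, minus the Vehicle mean of the gene, with bars at the group means and genes set out by part of the enzyme. Atp5g1 and Atp5g3 of the c ring lie above 0 with OMP, and Atp5c1 and Atp5d of the F1 part and Atp5h of the stalk lie below it.

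Nuclear chain genes are known targets of the transcription factor NRF1, and its recognition letters were looked for in the 250 bases before each RefSeq start on GRCm38.p6. The motif GCGCA, any base, GCGC, read on both strands, was present in 15 of 80 member promoters, which covered 75 genes matched by symbol (18.8%, against 3.74% of 32851 promoters). The 14 genes with a match moved in no common direction. Atp5k was higher with OMP, Atp5c1, Atp5h, Cox6a1 and Sdha were lower, and the other 9 did not pass. Among the 75 genes, 17 were higher and 18 lower. Over all genes tested 15.4% were higher and 27.5% lower, and the split among the genes with a match was not tested against this. Of other letters tried, AANATGGCG (YY1) was in 3.75% of member promoters and 1.12% of all, CCGGAAGT (GABP) in 3.75% and 2.88%, and CACGTG (the E-box) in 7.5% and 6.02%, and 0 matches of different motifs overlapped. The windows of 3 synthase genes with an NRF1 match are printed 5′ to 3′ on the minus strand, with the match in capitals, since these genes went opposite ways. They lie at chr5:108434400-108434649 for Atp5k (higher), chr11:115419920-115420169 for Atp5h (lower) and chr2:10080433-10080682 for Atp5c1 (lower), and GENCODE M21 places each start further upstream, inside the window. By those starts the match lies upstream for Atp5h, spans the start for Atp5k and lies downstream of it for Atp5c1.
Atp5k: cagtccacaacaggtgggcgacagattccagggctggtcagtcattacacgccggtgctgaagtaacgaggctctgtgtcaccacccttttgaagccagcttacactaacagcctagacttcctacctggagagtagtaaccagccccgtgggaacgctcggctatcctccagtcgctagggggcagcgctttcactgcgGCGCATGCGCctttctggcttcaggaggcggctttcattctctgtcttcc
Atp5h: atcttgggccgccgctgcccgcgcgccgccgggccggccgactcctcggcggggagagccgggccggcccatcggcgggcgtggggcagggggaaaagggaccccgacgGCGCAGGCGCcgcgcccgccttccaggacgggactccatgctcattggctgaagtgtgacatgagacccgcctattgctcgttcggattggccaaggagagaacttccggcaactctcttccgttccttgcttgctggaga
Atp5c1: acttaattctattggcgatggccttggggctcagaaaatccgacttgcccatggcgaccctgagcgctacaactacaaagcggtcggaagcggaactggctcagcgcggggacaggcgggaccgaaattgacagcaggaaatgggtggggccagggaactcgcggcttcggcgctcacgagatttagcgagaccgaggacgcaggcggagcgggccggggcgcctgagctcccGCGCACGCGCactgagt

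Across the 88 nuclear members tested, log2 fold change and counted gene length had a Spearman rho of -0.17, and so did log2 fold change and GC content. Over 11006 genes these were -0.016 and 0.047, and points share the same libraries. The median counted length was 759.5 bases in the 20 nuclear members that rose, 1031 bases in the 22 that fell and 1008.5 bases in the 46 that did not pass. After removing the trend with both, 35 of the 43 calls stood.

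Genes that build and supply the chain were taken from lists outside the name rule. Of their 140 tested genes 12 rose and 33 fell, a share of 32.1% called (8.57% higher and 23.6% lower), against 43.0% of all genes (15.4% higher and 27.5% lower). Of 22 tested complex IV assembly factors 1 rose and 7 fell (36.4% called), with a median log2 fold change of -0.11, against -0.089 for all genes. Coa4 had 12.96, 12.95 and 16.04 RPKM with OMP and 22.1, 19.0 and 21.5 RPKM with Vehicle (log2 fold change -0.56 ± 0.10 SE, limma adjusted p = 0.00230), while Pet100 went up by 0.54, a call lost without OMP replicate 3 (limma adjusted p = 0.0585) or Vehicle replicate 3 (0.0507). Cox15, which makes the haem a of complex IV, fell by 0.44. Of 34 genes for the expression and upkeep of mitochondrial DNA 1 rose and 6 fell (20.6% called and 17.6% lower, both under the shares of all genes). Tfam, which packs mitochondrial DNA and starts its transcription, had 13.3, 14.5 and 12.5 RPKM with OMP and 18.1, 21.2 and 17.2 RPKM with Vehicle (log2 fold change -0.47 ± 0.093 SE, limma adjusted p = 0.00396). Polrmt, the mitochondrial RNA polymerase, had 12.7, 11.9 and 13.7 RPKM with OMP and 8.83, 9.76 and 9.53 RPKM with Vehicle, so it was higher. Mgme1 and Trmt10c, which process mitochondrial DNA and RNA, fell by 0.54 and 0.49.

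Of 13 genes for haem a, haem c and iron-sulfur supply 2 rose and 2 fell (30.8% called). Over the lists of this paragraph the share called was 16.7% to 50%, against 43.0% of all genes. Nfs1, the pyridoxal phosphate enzyme that supplies sulfur, had 28.2, 27.9 and 26.6 RPKM with OMP and 22.8, 24.7 and 25.4 RPKM with Vehicle (log2 fold change 0.18 ± 0.060 SE, limma adjusted p = 0.0402), while Nfu1, a later carrier of clusters, rose by 0.55. Fdxr, the reductase that feeds electrons to cluster assembly, fell by 0.68. Of 10 complex I assembly factors outside the name rule 2 rose and 1 fell, with Acad9 down by 0.61 and Dmac1 up by 0.37. Complex II assembly had 0 rises and 2 falls of 4, complex III assembly 2 rises and 1 fall of 6, and synthase assembly 0 rises and 2 falls of 5, led by Tmem242, which fell by 0.50. Both complex II factors that fell, Sdhaf2 and Sdhaf4, were lost with median-of-ratios scaling (limma adjusted p = 0.120 and 0.101), without OMP replicate 1 (0.0797 and 0.103), OMP replicate 3 (0.124 and 0.0576) or Vehicle replicate 2 (0.0540 and 0.0921), and Sdhaf2 without Vehicle replicate 1 (0.120) and Sdhaf4 without Vehicle replicate 3 (0.117). Of 12 coenzyme Q synthesis genes 1 rose and 3 fell, with Coq4 down by 0.59 and Coq8b up by 0.32, the rise being lost without OMP replicate 1, OMP replicate 2, Vehicle replicate 1 or Vehicle replicate 3 (limma adjusted p = 0.0779 to 0.0900). Of 5 other enzymes that reduce coenzyme Q, Etfdh fell by 0.53 and the rest did not pass. Of 6 carriers and uncoupling proteins Ucp2 alone passed, with 110.5, 115.9 and 114.7 RPKM with OMP and 189.4, 189.6 and 179.9 RPKM with Vehicle (log2 fold change -0.71 ± 0.039 SE, limma adjusted p = 5.21e-06). Of 16 import and structure genes 2 rose and 5 fell, and the prohibitin partners Phb2 and Phb moved apart, by -0.59 and 0.53. Of 7 regulators of mitochondrial biogenesis 1 rose and 2 fell, with Pprc1 up by 0.53 and Gabpb1 down by 0.36.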

How the data were processed

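Poly(A)-selected RNA of 6 libraries was sequenced after TruSeq preparation, per the labels' protocols. The authors deposited 1 table of RPKM values with 53465 rows. Tools named in the submitters' processing notes are STAR 2.5.3a, featureCounts 1.6.3, Trimmomatic 0.36 and FastQC 0.11.5, and the build is GRCm38 (mm10). Strand setting, annotation release and the treatment of reads with several places of origin were not given in the sources used here. Columns were matched to libraries by their titles in the labels.

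Members were the rows whose names matched the rule, and their classes, the other gene lists and the tests were chosen with earlier results of these data known. Log2(RPKM + 0.5) was fitted with limma 3.58.1 in R 4.3.3 with a trended prior, OMP against Vehicle, without covariates. The 11020 genes at an RPKM of 1 or above in 3 or more libraries were kept. Tests were two-sided, with Benjamini-Hochberg adjustment over all of them and 0.05 as the threshold. Log2 fold changes are on the log2(RPKM + 0.5) scale and understate the change of low genes. Levels are given per library or as mean ± SD of 3 libraries, and SE is the standard error of a log2 fold change.

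RPKM kept the steps of whole reads, which were recovered within a relative tolerance of 1e-06. Of the 19970 genes above 0, 18888 (94.6%) came out whole at the length of an annotated transcript. For the rest the shortest length that made all values whole was searched for. That all genes came out whole was thus nearly fixed in advance, and the reads of the rest are less certain. These reads gave the library totals and the voom alternative, which called 5336 genes. Read depth speaks to counting error alone, since no molecular identifiers mark single molecules. Of the identifiers, 53274 had transcripts in GENCODE M21 on GRCm38, which gave positions and shared 50-base windows, and it may not be the release used for the counting. Libraries of a group differed by more than sampling noise (chi-square per degree of freedom 1.19 to 1.57), and none was taken for a duplicate.

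Named genes were all mitochondrial protein genes, the catalytic and cofactor subunits, the isoform families, and the 3 largest rises and falls among called members of each complex. For the other lists they were the 2 called genes with the largest change. Other genes that are named were chosen after their values were seen, and the values of 1 named member are not reported here. Alternatives were pseudocounts of 1 and 0.1, no filter, a filter at RPKM 5, TPM rescaling, median-of-ratios scaling, quantile normalization, totals without mitochondrial genes, a robust prior, voom, the replicate number as a block, a threshold of 0.01 and leaving out each library. The procedure was tested on simulated data. Promoters came from RefSeq (GRCm38.p6). Figures were drawn with matplotlib 3.10.9 in Python 3.11.15.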

Additional observations from a re-analysis of the deposited data

How the results depend on the processing

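With the RPKM as deposited 22 members were lower, 37 with TPM rescaling, 12 with median-of-ratios scaling and 13 at an adjusted p under 0.01, and of nuclear members 22, 34, 12 and 13. The nuclear median log2 fold change of -0.0021 was -0.0844 with TPM rescaling, 0.0852 with median-of-ratios scaling and 0.0769 after removing the trend with length and GC content, an alternative chosen after seeing the data. The mitochondrial median of -0.0364 was 0.1248 with that trend removed. Lower mitochondrial members, 0 as deposited, were 1 with a filter at RPKM 5, 3 with TPM rescaling, 4 with quantile normalization, 1 with a robust prior, 3 with voom, 1 with the replicate block and 1 with the trend removed. Higher ones, 1 as deposited, were 0 with quantile normalization and 3 with the trend removed. At an adjusted p under 0.01, by construction, 3070 of the 4735 genes and 28 of the 47 calls in the other lists remained. In this section the other lists are those that build and supply the chain (45 calls as deposited) together with a list of nuclear RNAs that holds Malat1 and Neat1. Quantile normalization turned mt-Cytb to -0.0599 (limma adjusted p = 0.441) and mt-Nd1 to -0.4369 (limma adjusted p = 0.000135), and the cause was not tested.

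With each library left out once there were 17 to 21 higher and 17 to 25 lower members, 16 to 20 and 17 to 23 nuclear ones, 1 to 1 higher and 0 to 2 lower mitochondrial ones (2 without OMP replicate 2, 1 without Vehicle replicate 1), 3968 to 4241 genes in all and 40 to 49 calls in the other lists, with medians of -0.0345 to -0.0057 (nuclear) and -0.0959 to 0.0360 (mitochondrial). Of the 43 calls, 33 to 38 stood in these fits. The replicate numbers share only a number (correlations of deviations -0.0024, 0.0155 and 0.0069). With the replicate block 4445 genes were called, with 22 members higher and 21 lower. Of the values of named genes under all alternatives, 1363 stayed on the same side of the threshold, 99 no longer passed, 36 newly passed and 2 reversed. Depth limits the low isoforms of complex IV.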

Other observations

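The 24 ribosomal and transfer RNA genes of the mitochondrial genome are a list taken after values were seen. Of these, 17 were listed at 0 in every library. All 4 that passed the filter were lower with OMP, against 27.5% of all genes tested. Of the 22 transfer RNAs 2 passed. Reads of all mitochondrial genes made up 1.144% ± 0.088 with OMP and 1.147% ± 0.071 with Vehicle (SD, n = 3 each). mt-Rnr1 and mt-Rnr2, the ribosomal RNAs, had 212.7 to 237.0 and 326.8 to 339.0 RPKM with OMP and 249.9 to 317.0 and 346.8 to 408.2 RPKM with Vehicle (limma adjusted p = 0.0330 and 0.0280). mt-Tc, a transfer RNA of the light strand like mt-Tp, had 43.4, 76.8 and 40.7 RPKM with OMP and 113.5, 148.1 and 199.8 RPKM with Vehicle (log2 fold change -1.53 ± 0.26 SE, limma adjusted p = 0.00182). mt-Tp had 38.4, 37.8 and 12.04 RPKM with OMP and 71.9, 109.4 and 91.4 RPKM with Vehicle (log2 fold change -1.76 ± 0.39 SE, limma adjusted p = 0.00732). Transfer RNA genes are very short, so the RPKM of mt-Tc and mt-Tp rest on few reads. The fewest were those of mt-Tp in OMP replicate 3. Groups did not overlap in these 4 genes, as in 54.5% of all genes tested. Poly(A) selection keeps few such RNAs, and its part in these values was not tested. Usmg5, a small subunit of the ATP synthase whose name the rule does not take in, was 113.3, 150.3 and 108.8 RPKM with OMP and 87.9, 107.5 and 89.8 RPKM with Vehicle (log2 fold change 0.37 ± 0.12 SE, limma adjusted p = 0.0387).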
